A study of Callithrix jacchus with 11 samples.

Results

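Hippocampal gene expression was compared between human hand-reared male common marmosets (Callithrix jacchus) whose mothers had themselves been hand-reared and hand-reared males whose mothers had been raised by their own parents. The comparison took in 6 of the 11 animals of the series, namely all that were hand-reared. HRY1 and HRY2 (hand-reared young) and HRA3 (hand-reared aged) came from hand-reared mothers, and HRY3, HRA1 and HRA2 came from parent-reared mothers, so that each side held 3 animals. The 2 rearing conditions of the mothers were taken from the study's overview of its animals and not from the sample labels, which give rearing and stage of the offspring only. The animals are assumed to carry the same numbers in both, and each statement on mother's rearing, RIN, age and litter rests on that. All 6 were raised by humans for the first 3 months of life and then lived with peers of their own age. The young animals were between 13 and 19 months old when tissue was taken and the aged animals between 88 and 164 months. The other 5 animals, PRY1 and PRY2 (parent-reared young) and PRA1, PRA2 and PRA3 (parent-reared aged), had parent-reared mothers without exception. They did not enter the test and were used only as arrays that had no part in choosing transcripts. The labels name no transgene or agent for any group, and the fathers of all 6 hand-reared animals were parent-reared. Hand-reared animals were surplus neonates of large litters, so they were not assigned at random, and whether any of the 6 share a mother is not given in the sources used here.

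Marmosets rear their young in family groups, in which the father and older siblings carry the infants as well as the mother, and an infant taken for hand-rearing is fed by caretakers and is without that contact. The hippocampus, which forms new memories and takes part in restraining the hormonal stress response, is among the brain regions in which early parental care has long been studied.

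The mother's rearing was tied to other properties of the 6 samples. Among the young animals, HRY1 and HRY2 were hybridized on slide 1 and HRY3 on slide 2, so slide and mother's rearing cannot be told apart at that stage. All 3 aged arrays were on slide 2. Among the aged animals, HRA3 had the highest RIN (RNA integrity number, which falls as RNA is degraded), and among the young animals HRY3 had the lowest. The offspring of hand-reared mothers were also the older animals within each stage, and HRY1 came from a larger litter than the others. RIN, age and mother's rearing therefore ran the same way at both stages and their parts in the results were not separated.

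RNA of each animal was labelled with Cy3 and hybridized to its own array, which held 54670 probes, each for a different marmoset transcript. The files name transcripts by Ensembl identifier, and 0 of the identifiers were paired with a gene symbol in the tables used here. The results are therefore given by transcript, and the marker genes of hippocampal cell types were not analysed here. Levels are log2 intensities relative to the 75th percentile of the same array, so that 0 is the brightness of a well expressed transcript and a step of 1 is a factor of 2. A level can be compared between animals for 1 probe, but not between probes. Of all transcripts, 39594 were well above background on every one of the 6 arrays and were tested, 9919 were so on none of them, and 18 were left out because no usable spot remained on some array. A further 5139 transcripts were well above background on 1 to 5 of the 6 arrays. Among these, 47 were so on all 3 arrays of the offspring of hand-reared mothers and on none of the other 3, and 56 showed the reverse. The 75th percentile was between 1521 and 2766 intensity units and was higher on slide 1 (2766 and 2609 in HRY1 and HRY2) than on slide 2 (at most 1665). Repeat spots of a probe differed by a median standard deviation (SD) of between 0.0715 and 0.10 log2 units per array. The tissue was measured in bulk, so fewer cells of a type and less RNA per cell cannot be told apart.

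By the study's criteria, a more than 2-fold change with an unadjusted p under 0.05, the 2 sides differed for 519 transcripts (1.31% of those tested) in limma with stage as a block. Of these, 222 (0.561%) were higher and 297 (0.75%) were lower in the offspring of hand-reared mothers. No transcript (0%) had a Benjamini-Hochberg adjusted p under 0.05 in limma, the smallest being 0.189. An unadjusted p under 0.05 was reached by 2930 (7.4%), against 1980 that chance alone would give. With RIN in the model that count was 1834 (4.63%), below the number by chance. Student's t-test with stage left out likewise gave 0 transcripts after adjustment and 3898 at an unadjusted p under 0.05. The study's methods name this test but do not say that it was used for the arrays. The 519 transcripts are therefore described below as those that met the criteria, with no claim that any 1 of them differed after correction for the number tested. The number of animals limited the precision, as the fit had 3 residual degrees of freedom.

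The estimate is the mean of the young and the aged difference, and in 0 of the 519 transcripts did the 2 have opposite signs. Over all tested transcripts the share with opposite signs was 60.7%, and the criteria themselves favour agreement of the stages. Among the 222 higher transcripts the median young difference, the mean of HRY1 and HRY2 minus HRY3, was 1.5 on the log2 scale and the median aged difference, HRA3 minus the mean of HRA1 and HRA2, was 1.32. The 2 sides did not overlap within either stage in 211 of the 222, and all 3 animals of hand-reared mothers lay above all 3 others in 165. Among the 297 lower transcripts the medians were -1.45 in young and -1.17 in aged animals, 294 did not overlap within either stage, and in 251 all 3 lay below all 3. Over all tested transcripts, 24.1% did not overlap within either stage with the same direction at both and 16.5% did not overlap between all 3 and all 3, and selection by p favours such transcripts. Both differences exceeded 2-fold in 107 of the higher and 131 of the lower transcripts. Over all tested transcripts both did so upward in 111 and downward in 133, so the criteria took in nearly all of these. Neighbouring probe numbers of the array design recurred among them. The 222 higher transcripts fell into 159 groups, each a single probe or a run of consecutive numbers. Of the 222, 104 lay in runs, the longest of 6. The 297 lower transcripts fell into 192 such groups, with 168 in runs, the longest of 10. Of all tested transcripts, 37548 had an adjacent number that was also tested, and the number of runs by chance was not tested. Counts of transcripts can thus be larger than counts of separate signals.

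ENSCJAT00000060159.1 showed the largest increase that met the criteria. Its log2 level was 3.88 in HRY1, 4.15 in HRY2 and 3.74 in HRA3, against 0.07 in HRY3, -3.56 in HRA1 and -2.34 in HRA2. The 3 offspring of hand-reared mothers were within 1 doubling of each other although they spanned both stages, and the other 3 were lower and more spread, the young one lying between the aged pair and the high animals. The fitted difference was 5.32 ± 0.66 (SE) on the log2 scale, a fold of 40, at an unadjusted p of 0.000219 and, adjusted in limma, of 0.209. It was 3.95 in young and 6.70 in aged animals. PRA1, a parent-reared animal of a parent-reared mother, stood at 3.91 beside the high animals, whereas the other 4 parent-reared animals were between -2.05 and 1.3. A high level of this transcript was thus found in 1 animal on the other side of the comparison.

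The same 4 animals were high for ENSCJAT00000006582.2 and ENSCJAT00000006584.1, whose identifiers and probe numbers lie close together. ENSCJAT00000006582.2 was at 2.02, 2.14 and 1.81 in HRY1, HRY2 and HRA3 and at -0.48, -1.72 and -1.67 in HRY3, HRA1 and HRA2. It differed by 3.03 ± 0.24 (SE) with an adjusted p of 0.189 in limma, and ENSCJAT00000006584.1 by 3.16 ± 0.28 (SE) with an adjusted p of 0.201. In PRA1 the levels were 2.06 and 2.05, and in the other parent-reared animals they did not exceed -0.10. Values of both transcripts fell on a high level in HRY1, HRY2, HRA3 and PRA1, with lower values in the 7 other animals.

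ENSCJAT00000062906.1 gave the smallest p of the comparison. It was at -1.44 in HRY1, -1.16 in HRY2 and -1.95 in HRA3, and at -3.99 in HRY3, -4.31 in HRA1 and -4.33 in HRA2. The difference was 2.53 ± 0.17 (SE), a fold of 5.79, at an unadjusted p of 6.39e-06 and, adjusted in limma, of 0.189. The young difference of 2.70 and the aged difference of 2.37 were nearly equal, and the gap between the sides was wide beside the spread within them. PRA1 was again in the upper range at -1.92, and the other parent-reared animals were between -4.23 and -3.56, close to the offspring of parent-reared mothers.

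ENSCJAT00000032995.2, ENSCJAT00000062140.1 and ENSCJAT00000033022.2 have consecutive probe numbers and moved as 1 signal. ENSCJAT00000032995.2 was at 0.35 in HRY1, 0.72 in HRY2 and -1.07 in HRA3, and at -1.97 in HRY3, -5.51 in HRA1 and -5.15 in HRA2. Here the stage mattered as well, the aged animals lying below the young ones on either side. The fitted differences of the 3 transcripts were between 3.26 and 3.39, with adjusted p-values between 0.209 and 0.231 in limma. In PRA1 the 3 levels were between 0.43 and 0.58, higher than in HRA3, and the other parent-reared animals were between -3.97 and -1.23.

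ENSCJAT00000030969.1 did not share the high value of PRA1. Its level was -3.68 in HRY1, -3.32 in HRY2 and -3.08 in HRA3, against -6.14, -5.29 and -5.28 in HRY3, HRA1 and HRA2, a difference of 2.42 ± 0.19 (SE) with an adjusted p of 0.189 in limma. The parent-reared animals were between -4.30 and -2.23, above every hand-reared animal of a parent-reared mother. ENSCJAT00000056808.1 had a similar arrangement, with levels of -1.83, -2.92 and -3.82 in HRY1, HRY2 and HRA3 and of -6.66, -4.60 and -6.07 in HRY3, HRA1 and HRA2. PRY1 was as low as the latter at -5.87, and the other 4 parent-reared animals were between -3.22 and -2.14. ENSCJAT00000056808.1 differed by 2.90 ± 0.75 (SE), with an adjusted p of 0.486 in limma, by 4.28 in young but 1.51 in aged animals, and it no longer met the criteria without HRY3, where the estimate was 1.51. With another background correction (normexp), the difference was 1.103 for ENSCJAT00000030969.1 and 1.49 for ENSCJAT00000056808.1. HRY3, HRA1 and HRA2 lay below -4.89 for ENSCJAT00000030969.1, which is the median level of the dimmest 7919 tested transcripts. For these 2 transcripts most parent-reared animals, whose mothers were parent-reared, lay nearer to the offspring of hand-reared mothers.

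ENSCJAT00000010675.1 was higher by 2.68 ± 0.48 (SE), with an adjusted p of 0.326 in limma, but unevenly so. It stood at -3.35 in HRY1 and -3.08 in HRY2 against -4.79 in HRY3, and at -1.94 in HRA3 against -5.68 in HRA1 and -5.79 in HRA2. The aged difference of 3.79 exceeded the young difference of 1.58, and these differed by 2.22 (limma, adjusted p of 0.0392). Without HRA3 the estimate was the young difference of 1.58, and with RIN in the model it was 0.84 and did not meet the criteria. All 5 parent-reared animals lay between -4.32 and -2.20.

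**Figure D1:**
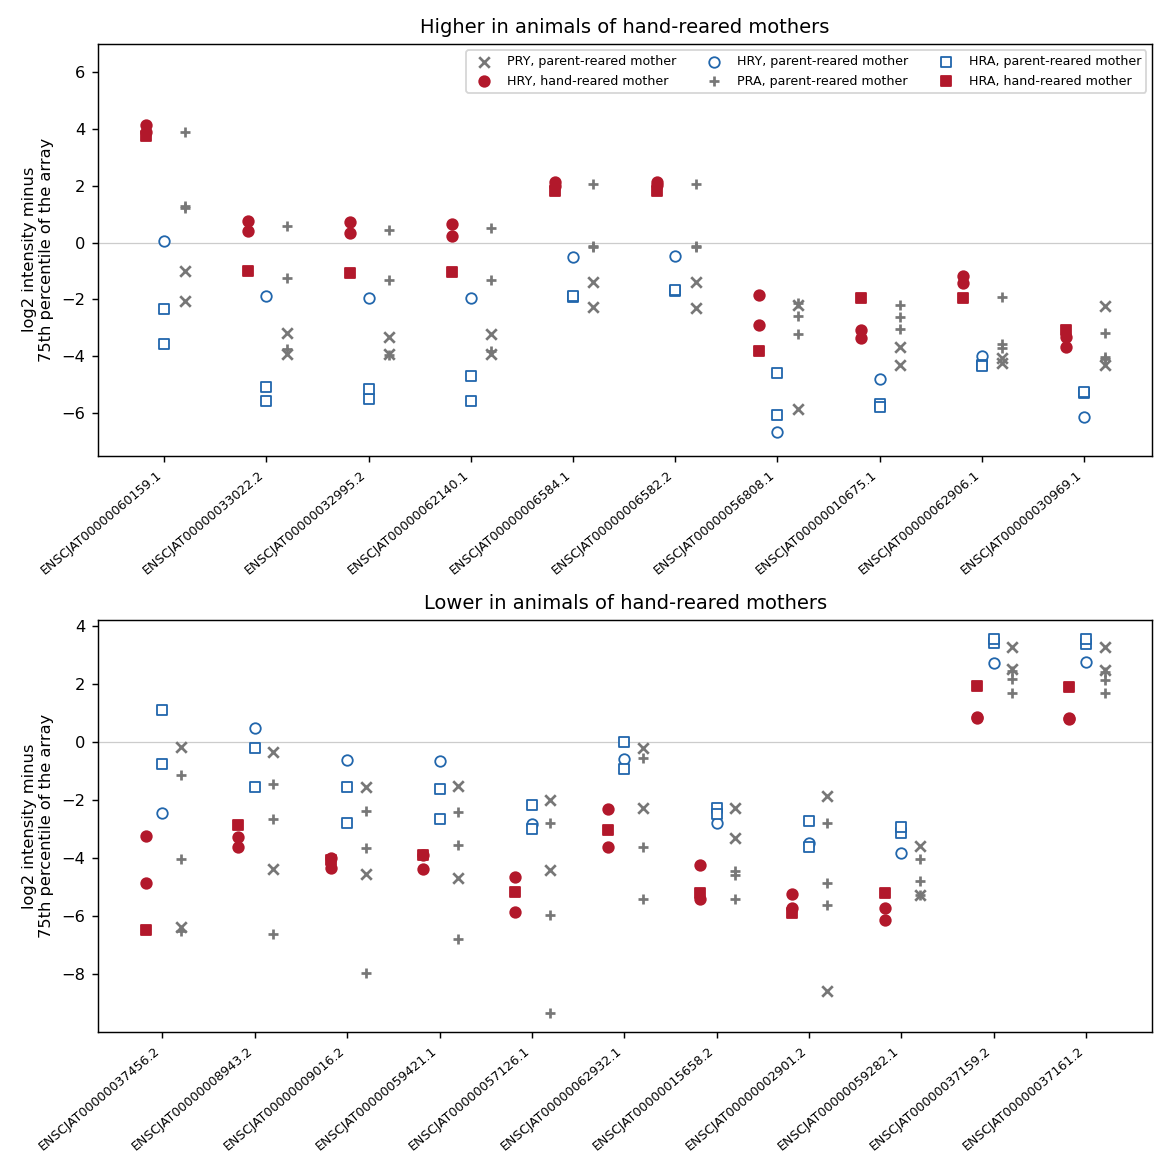
Log2 intensity relative to the 75th percentile of each array (y axis) of the named transcripts (x axis), higher ones above and lower ones below, with 1 point per animal. Red symbols are the 3 offspring of hand-reared mothers, blue open symbols the 3 hand-reared offspring of parent-reared mothers and grey symbols the 5 parent-reared animals, which in many transcripts span both sides.

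Among the lower transcripts, ENSCJAT00000037456.2 had the largest fitted decrease and the largest error. Its level was -3.25 in HRY1, -4.85 in HRY2 and -6.49 in HRA3, against -2.43 in HRY3, 1.1 in HRA1 and -0.74 in HRA2. The difference fell by 4.14 on the log2 scale (SE 1.22), with an adjusted p of 0.546 in limma, and most of it came from the aged animals (-6.67, against -1.62 in young animals). Without HRA3 it no longer met the criteria and the estimate was the young difference of -1.62. Levels in the parent-reared animals ran from -6.50 to -0.17, nearly the whole range seen among the 6 hand-reared animals.

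ENSCJAT00000008943.2, ENSCJAT00000009016.2 and ENSCJAT00000059421.1 again lie close together in the design and moved in parallel. ENSCJAT00000008943.2 was at -3.61, -3.25 and -2.85 in HRY1, HRY2 and HRA3 and at 0.49, -1.54 and -0.19 in HRY3, HRA1 and HRA2, a difference of -2.95 ± 0.55 (SE) with an adjusted p of 0.331 in limma. The other 2 differed by -2.71 and -2.62. In each of the 3 the young difference (between -3.93 and -3.47) was larger than the aged one (between -1.98 and -1.77). PRY1 and PRA3 were among the higher animals for ENSCJAT00000008943.2 at -0.34 and -1.44, and PRA2 was the lowest of all 11 at -6.60. None of the 3 met the criteria when all 11 arrays were fitted together, with or without slide.

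ENSCJAT00000062932.1 and ENSCJAT00000057126.1, with consecutive probe numbers, showed nearly the same decrease at both stages. The level of ENSCJAT00000062932.1 was -2.31 in HRY1, -3.60 in HRY2 and -3.01 in HRA3, and -0.57, 0.01 and -0.91 in HRY3, HRA1 and HRA2. It differed by -2.48 ± 0.43 (SE), by -2.39 in young and by -2.56 in aged animals, with an adjusted p of 0.320 in limma. ENSCJAT00000057126.1 differed by -2.52 with an adjusted p of 0.266. Both ranged widely among the parent-reared animals, ENSCJAT00000062932.1 from -5.39 in PRA2 to -0.19 in PRY2, and neither met the criteria in the fits of all 11 arrays.

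ENSCJAT00000059282.1 had the smallest p of the lower transcripts. It was at -5.73 in HRY1, -6.13 in HRY2 and -5.19 in HRA3, and at -3.81 in HRY3, -3.14 in HRA1 and -2.92 in HRA2. The young difference of -2.12 and the aged difference of -2.16 were all but equal, and the fit gave -2.14 ± 0.18 (SE), at an unadjusted p of 2.43e-05 and, adjusted in limma, of 0.193. The parent-reared animals lay between -5.25 and -3.59 and spanned the gap between the sides. With another background correction (normexp), the difference was -1.24.

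ENSCJAT00000037159.2 and ENSCJAT00000037161.2 differed less in size but with small errors. ENSCJAT00000037159.2 was at 0.88 in HRY1, 0.85 in HRY2 and 1.95 in HRA3, and at 2.74 in HRY3, 3.43 in HRA1 and 3.56 in HRA2. The difference was -1.71 ± 0.16 (SE), which put the sides 3.27-fold apart (limma, adjusted p of 0.209). ENSCJAT00000037161.2 followed it with -1.76 ± 0.17 (SE). PRA2, at 1.7, was the only parent-reared animal below HRA3 for ENSCJAT00000037159.2, and of the other 4, between 2.18 and 3.27, PRY1 alone reached the range of HRY3, HRA1 and HRA2.

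ENSCJAT00000015658.2 and ENSCJAT00000002901.2 complete the 8 largest decreases. The first was at -4.23, -5.42 and -5.21 in HRY1, HRY2 and HRA3 and at -2.79, -2.26 and -2.47 in HRY3, HRA1 and HRA2, a difference of -2.44 ± 0.37 (SE) with an adjusted p of 0.254 in limma. The second was at -5.24, -5.72 and -5.90 against -3.47, -3.63 and -2.72, a difference of -2.37 ± 0.33 (SE) with an adjusted p of 0.231. In both, all 3 offspring of hand-reared mothers lay below all 3 others. ENSCJAT00000002901.2 varied more among the parent-reared animals than between the sides, from -8.58 in PRY1 to -1.85 in PRY2, 2 young animals whose mothers were both parent-reared. It did not meet the criteria when all 11 arrays were fitted together, and with slide in that fit the estimate was -0.49. With another background correction (normexp) of the 6 arrays, the estimate was -1.34.

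The parent-reared animals allowed these transcripts to be read in arrays that had not chosen them. For each transcript an animal was placed on the side of the offspring of hand-reared mothers or on the other side of the midpoint between the means of the 2 sides. Of the 222 higher transcripts, PRA1 was on the side of the offspring of hand-reared mothers in 204 (91.9%), PRA2 in 162 (73%), PRA3 in 138 (62.2%), PRY1 in 96 (43.2%) and PRY2 in 72 (32.4%). Over all tested transcripts the same animals were above the midpoint in between 45.6% (PRA1) and 52.9% (PRA3). PRA1 thus resembled the offspring of hand-reared mothers for most of the higher transcripts, as it did for the named ones. Of the 297 lower transcripts, PRA2 was on that side in 229 (77.1%), PRA1 in 185 (62.3%), PRY1 in 175 (58.9%), PRA3 in 132 (44.4%) and PRY2 in 107 (36%). That side is below the midpoint here. Over all tested transcripts PRA2 was above it in 51.4%, PRA1 in 45.6%, PRY1 in 52.4%, PRA3 in 52.9% and PRY2 in 49.2%, and below it in the rest. The share of PRA2 was the farthest from its share over all transcripts, and that of PRA3 the nearest. All 5 parent-reared animals were on the side shared with the other offspring of parent-reared mothers in 6 of the higher (2.7%) and 21 of the lower transcripts (7.07%), against 4.01% and 3.47% of all tested transcripts read in those directions. All 5 were on the side of the offspring of hand-reared mothers in 15 (6.76%) and 18 (6.06%), against 3.47% and 4.01%. In the remaining 201 (90.5%) and 258 (86.9%) the parent-reared animals were split, as they were in 92.5% of all tested transcripts, so the share that was split lay near that over all transcripts.

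PRY1 and PRY2 share their stage and their mothers' rearing but were hybridized on slides 1 and 2, as were the 2 sides of the young comparison. PRY2 also had a lower RIN than PRY1, as HRY3 had beside HRY1 and HRY2, so slide and RIN were not separated here. PRY1 minus PRY2 had the sign of the mother difference in 120 (54.1%) of the 222 higher transcripts, against 51.7% of all tested transcripts with a positive value, and in 180 (60.6%) of the 297 lower ones, against 48.3% with a negative value. It exceeded 2-fold in that direction in 71 (32%) and 100 (33.7%) of them, against 7.49% and 7.47% of all tested transcripts. These transcripts were chosen for large differences, and the share past 2-fold in the opposite direction was not counted. The excess is therefore no measure of agreement in direction. Across 39591 transcripts, the mother difference and PRY1 minus PRY2 had a Pearson's r of 0.213 and a Spearman's rho of 0.320, the young difference alone 0.181 and 0.270, and the aged difference, in which all arrays were on 1 slide, 0.0830 and 0.0545. Transcripts are not independent replicates and only 2 parent-reared young animals were measured, so these values are a description. The parts of slide and RIN in the result were not tested.

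The young and the aged difference were next set against each other. They had opposite signs in 24019 of the 39594 transcripts (60.7%), and in 44.7% the sides did not overlap within either stage with opposite directions at the 2 stages. Across transcripts their Pearson's r was -0.192 and their Spearman's rho -0.267. The SD of the young difference over transcripts was 0.585 and that of the aged difference 0.498, while that of the mean of both was 0.346. HRY1 and HRY2, which have the same rearing, differed with an SD of 0.391, and HRA1 and HRA2 with 0.350. The young difference exceeded 2-fold upward in 2113 transcripts (5.34%) and downward in 879 (2.22%), and the aged difference upward in 1.48% and downward in 2.97%, each with 1 animal against 2. Of the 2113, 111 were also more than 2-fold higher in the aged comparison, 197 were more than 2-fold lower, and 1626 had the opposite sign there. Of the 879, 516 had the same sign in the aged comparison and 363 the opposite one, 133 were also more than 2-fold lower in the aged comparison and 25 were more than 2-fold higher. Upward young differences were thus mostly not repeated among the aged animals.

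**Figure D2:**
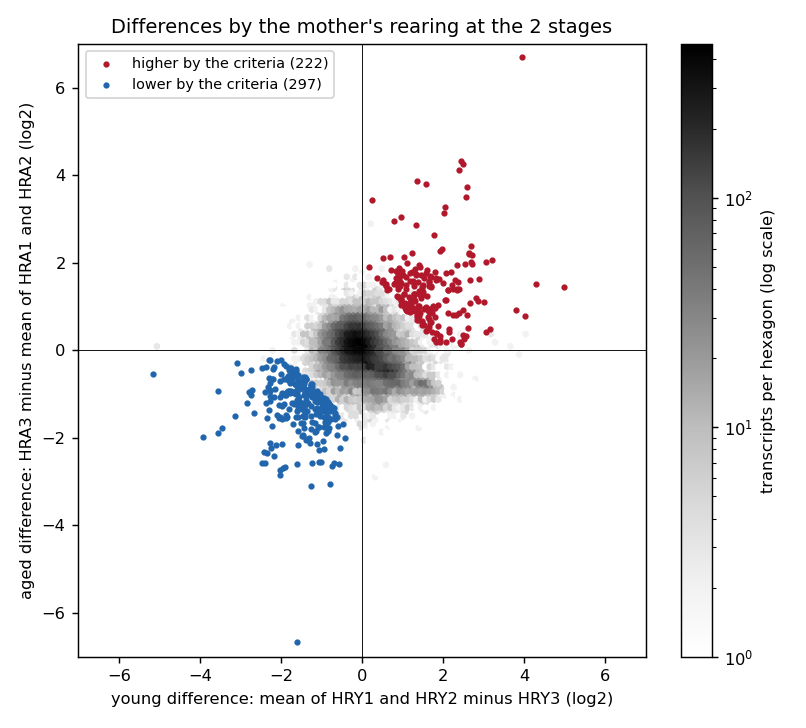
Aged difference by the mother's rearing (y axis, log2) against the young difference (x axis, log2) for 39594 transcripts, with grey hexagons for their number and coloured points for the 222 higher and 297 lower transcripts that met the criteria. The coloured points lie where both differences have the same sign, while the grey body tilts towards opposite signs.

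The difference between the stages was itself tested in limma as an interaction. Because 1 animal stands against 2 at each stage, with the lone animal on opposite sides, this term equals HRY3 and HRA3 together against HRY1, HRY2, HRA1 and HRA2. An adjusted p under 0.05 was reached by 4311 transcripts (10.9%), the smallest being 0.0392, and an unadjusted p under 0.05 by 13087 (33.1%). In 3472 of the 4311 (8.77% of those tested) the young difference was the more positive one, that is, HRY3 and HRA3 were the lower animals, and in 839 (2.12%) they were the higher. The fit left 2 residual degrees of freedom, and 0 transcripts reached an adjusted p under 0.05 when HRY1, HRY2, HRA1 or HRA2 was left out.

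Named for the interaction were the 3 with the largest value among transcripts that had an unadjusted p under 0.05 and moved in opposite directions, without overlap, at the 2 stages. Of these, ENSCJAT00000052737.1 had the smallest error. It was at -4.48 in HRY1, -4.56 in HRY2, -4.62 in HRA1 and -4.42 in HRA2, and at -6.77 in HRY3 and -6.49 in HRA3. The interaction was -4.21 (limma, adjusted p of 0.0392). The parent-reared animals fell into the same 2 levels, with PRY1 and PRY2 at -4.29 and -4.60 and PRA1, PRA2 and PRA3 between -6.58 and -6.14. ENSCJAT00000010560.1 was at -2.06 and -1.33 in HRA1 and HRA2 and between -6.41 and -4.92 in the other 4 animals, an interaction of -4.29 (limma, adjusted p of 0.0392). PRY1 and PRY2, at -1.33 and -2.91, lay nearer to HRA1 and HRA2, and PRA1, PRA2 and PRA3 were between -5.22 and -3.60. ENSCJAT00000042419.2, at -0.98 and -2.43 in HRY1 and HRY2, -5.17 in HRY3, -2.31 and -2.86 in HRA1 and HRA2 and -3.91 in HRA3, had an interaction of -4.78 and an adjusted p of 0.0516. HRY3 and HRA3 were thus the lowest of the 6 animals for ENSCJAT00000052737.1 and ENSCJAT00000042419.2. For ENSCJAT00000010560.1, HRA1 and HRA2 stood apart instead. The low values of ENSCJAT00000052737.1 lay below -4.89, the median level of the dimmest 7919 tested transcripts. With another background correction (normexp), its interaction was -1.26, that of ENSCJAT00000010560.1 -2.08 and that of ENSCJAT00000042419.2 -3.48.

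The transcripts in which the young difference was the more positive were concentrated in 1 stretch of the array design. Up to probe number 46000, 987 of 33507 tested transcripts (2.95%) were among them, with between 1.33% and 4.86% in each of 46 bins of 1000 consecutive numbers. From number 46001 to the last, 54670, it was 2485 of 6087 (40.8%), with between 20.4% and 51.2% in each of 9 such bins, the last being shorter. The boundary was chosen after the values were seen, and what sets the transcripts of the last stretch apart is not given in the sources used here. Their median young difference was 0.51 and their median aged difference -0.44, against -0.08 and 0.08 for the transcripts up to number 46000. Within the last stretch the young and the aged difference had opposite signs in 82.8% of transcripts, with a Pearson's r of -0.418 and a Spearman's rho of -0.483, and elsewhere in 56.6%, with an r of -0.03 and a rho of -0.104. The opposition of the stages was thus more marked among these probes, a comparison that was not tested. Transcripts that met the criteria for the mother's rearing were rare there, with 6 higher (0.0986%) and 2 lower (0.0329%), against 0.645% and 0.88% elsewhere.

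The arrays also differed in their response to the spike-in RNAs, which are added to each sample in known amounts. The slope of log signal on log amount was 0.955 in HRY3 and 0.962 in HRA3, and 0.910, 0.898, 0.913 and 0.891 in HRY1, HRY2, HRA1 and HRA2. Among the parent-reared animals it was 0.898 and 0.905 in PRY1 and PRY2 and 0.975, 1.00 and 0.998 in PRA1, PRA2 and PRA3. HRY3 and HRA3 thus had the steeper slopes of the 6, as had the aged parent-reared animals of the other 5. Above probe number 46000, the median deviation of the tested transcripts from their mean over 11 arrays was -0.30 in HRY3 and -0.18 in HRA3, and between 0.19 and 0.31 in HRY1, HRY2, HRA1 and HRA2. It was 0.29 and 0.15 in PRY1 and PRY2 and -0.10, -0.43 and -0.45 in PRA1, PRA2 and PRA3. The 5 arrays with a slope of at least 0.955 had negative medians and the 6 others positive ones. Among the parent-reared animals this was also the split between the stages, so slope and stage cannot be told apart there. The part of the spike-in response in the difference between the stages was not tested.

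**Figure D3:**
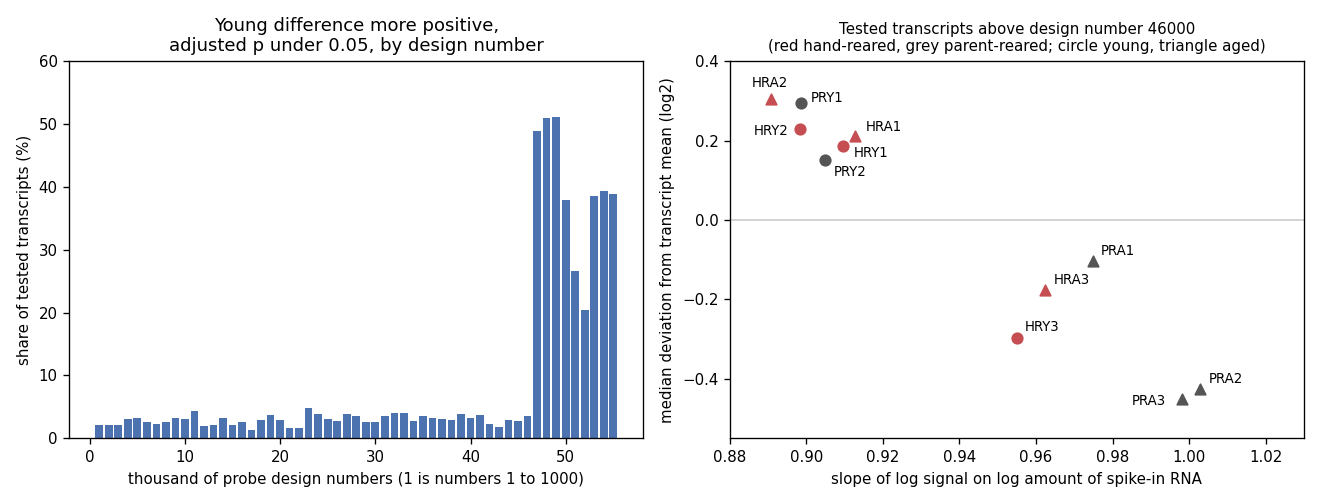
Left, share of tested transcripts (y axis, %) with a more positive young difference at an adjusted p under 0.05, for bins of 1000 consecutive probe design numbers (x axis), which is at most 4.86% up to number 46000 and at least 20.4% thereafter. Right, median log2 deviation of the 6087 tested transcripts above number 46000 (y axis) against the slope of log signal on log amount of spike-in RNA (x axis), with 1 point per array, in which the 5 arrays with the steeper slopes, HRY3 and HRA3 among them, lie below 0.

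Over all tested transcripts the 6 arrays separated in a corresponding way. Pairs of arrays had Pearson's r across transcripts between 0.977 (HRY1 and HRY3) and 0.993 (HRA1 and HRA2), and HRA3 correlated more with HRY3 (0.991) than with HRA1 (0.985) or HRA2 (0.984), the animals of its own stage. The first principal component (39.2% of variance) set HRY1 and HRY2, at -70.9 and -48.5, apart from the other 4 arrays, which were between 21.4 and 39.3. These were also the 2 arrays of slide 1. The second (31.5% of variance) held HRY3 and HRA3 at 52.3 and 40.6, HRA1 and HRA2 at -47.8 and -48.1, and HRY1 and HRY2 near 0. Neither component placed the 3 offspring of hand-reared mothers on 1 side and the other 3 on the other.

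**Figure D4:**
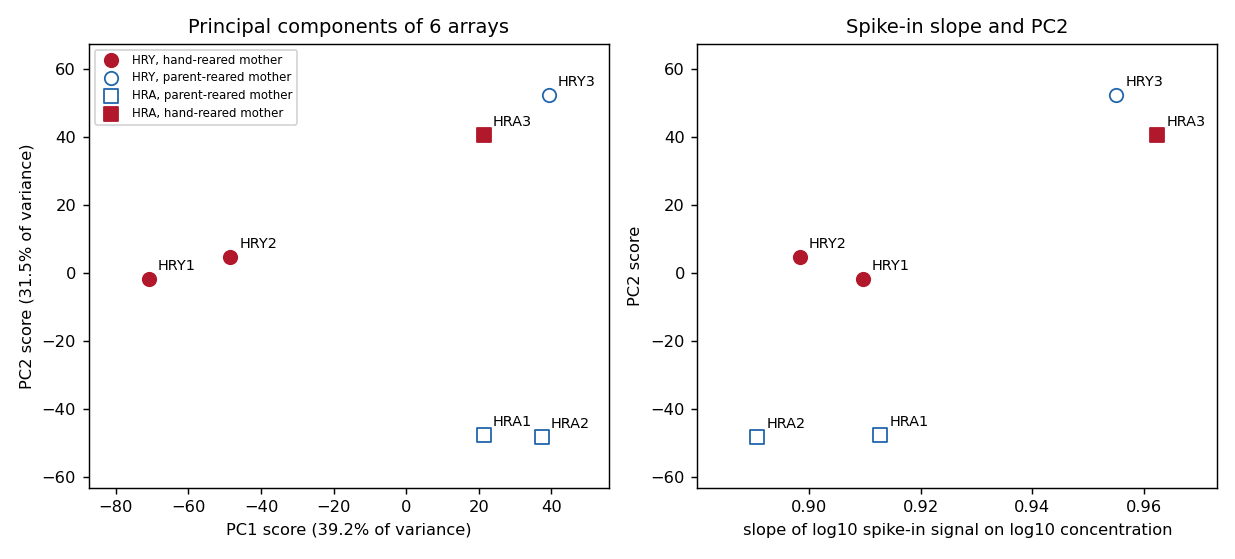
Scores of the 6 hand-reared arrays on the first and second principal component (left) and the second component's score against the slope of log signal on log amount of spike-in RNA (right), with filled red symbols for offspring of hand-reared mothers and open blue symbols for offspring of parent-reared mothers. HRY3 and HRA3, of different stage and mother, lie together in both plots.

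The number of transcripts that met the criteria moved most, among the animals left out, with HRA3 and HRY3. Without HRA3, which leaves the young comparison alone, 1867 transcripts were higher and 697 lower, and without HRY3, which leaves the aged comparison alone, 444 were higher and 944 lower. Leaving out any of the other 4 gave between 200 and 332 higher and between 293 and 365 lower transcripts. A fit with RIN gave 1024 higher and 755 lower, and turned the balance from more lower to more higher transcripts. Fewer transcripts had an unadjusted p under 0.05 in that fit, 1834 against 2930. The term for slide gave the same counts as leaving out HRY3, since within the young stage it takes up the whole difference. Of the 21 transcripts named for the mother's rearing, the estimate kept its sign in all settings tried. With RIN in the model 12 of the 21 no longer met the criteria, among them ENSCJAT00000060159.1, with an estimate of 4.35 and an unadjusted p of 0.0507 in limma, and ENSCJAT00000037456.2, with an estimate of -1.75. In the fit of all 11 arrays, 7 no longer did. ENSCJAT00000006584.1, ENSCJAT00000006582.2, ENSCJAT00000062906.1, ENSCJAT00000030969.1, ENSCJAT00000059282.1, ENSCJAT00000037159.2 and ENSCJAT00000037161.2 met the criteria in each of the 24 settings. No setting gave a transcript with an adjusted p under 0.05.

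**Figure D5:**
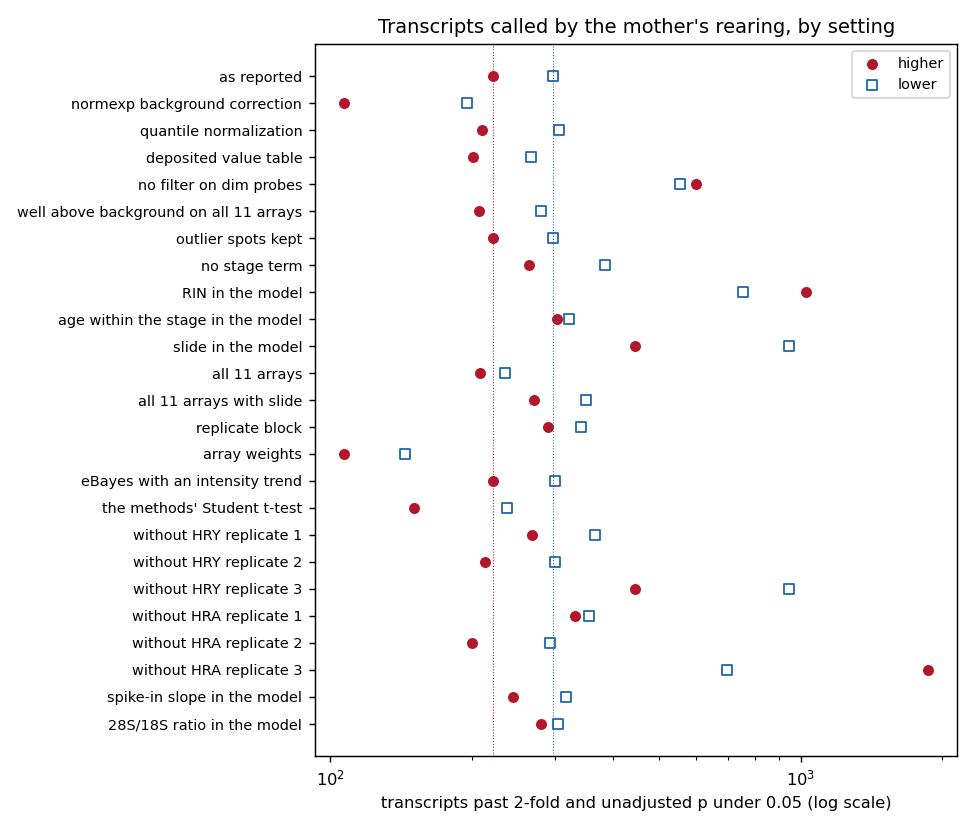
Number of transcripts that met the criteria (x axis, log scale) under each setting (y axis), with filled circles for higher and open squares for lower transcripts and dotted lines at the reported 222 and 297. Among the higher transcripts, the counts without HRA3 (1867) and with RIN (1024) lie farthest to the right, and among the lower the count of 944, without HRY3 or with slide, does.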

How the data were processed

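The authors read the scanned single-dye arrays with Agilent Feature Extraction 11.0.1.1, and the deposited files hold 1 background-subtracted intensity per spot, not normalized between arrays, with a flag each for outlier spots, saturated spots and spots well above background. A deposited table of processed intensities for 44118 transcripts equalled these intensities divided by a constant per array, which lay within 0.0985% of the 75th percentile, and served as an alternative. An array gives an intensity and no read depth, so precision depends on how many animals were measured.

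Control and outlier spots were left out here (6 to 13 outlier spots per array, 0 saturated), log2 values of repeat spots were averaged, and each array was centred on its 75th percentile. The test used limma (3.58.1, run in R 4.3.3) for transcripts well above background on all 6 arrays, with stage as a block, and with an interaction in a second fit. Adjustment by Benjamini-Hochberg covered all tested transcripts, and the fit was tested on simulated data. The spike-in slope was copied from the files' own statistics. Mother's rearing, age and litter come from the study's overview and RIN from its supplement. RIN and age entered as covariates in alternatives, and litter entered no fit. The samples are separate animals.

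Named are the 8 largest changes in each direction without overlap within either stage, the 3 smallest p in each direction and the 3 largest differences between the stages among transcripts with an unadjusted interaction p under 0.05 and opposite directions without overlap at the 2 stages. The members and these rules were chosen with earlier results of these data known. Alternatives were normexp background correction, quantile normalization, the deposited table, other filters, outlier spots kept, no stage term, RIN, age, slide or the replicate number in the model, all 11 arrays, array weights, an intensity trend, Student's t-test and each animal left out. The alternatives chosen after seeing the data were the spike-in slope and the 28S/18S ratio, 3 settings for the interaction and the split at probe number 46000.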

Additional observations from a re-analysis of the deposited data

Results flagged for a closer look

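The difference between the aged and the young comparison was itself past the threshold for 4311 transcripts at an adjusted p under 0.05 in limma. Of the 3472 in which the young difference was the more positive, 2485 belong to the last stretch of probe numbers, as do 25 of the other 839. The 2 animals that the term sets apart, HRY3 and HRA3, had the steeper spike-in slopes, whose part was not tested.

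Among the named transcripts, the interaction (aged minus young difference, log2) was -4.78 for ENSCJAT00000042419.2, -4.29 for ENSCJAT00000010560.1 and -4.21 for ENSCJAT00000052737.1, in which the 2 stages moved in opposite directions. It was 1.15 for ENSCJAT00000006584.1 (adjusted p 0.0433 in limma) and 2.22 for ENSCJAT00000010675.1 (adjusted p 0.0392 in limma), which were higher in offspring of hand-reared mothers at both stages and more so among the aged. With 3 animals per stage, single animals far from their group were not looked for.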

How the results depend on the processing

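The count of adjusted p-values under 0.05 by the mother's rearing was 0 under every setting. The count of unadjusted p-values under 0.05, 2930 as reported, was below the 1980 of chance in some settings. These were RIN (1834), age (1904) or the 28S/18S ratio (1534) in the model and array weights (474). It was also below 1980 without HRY2 or HRA2, and above it in the other settings. Of transcripts that met the criteria (222 higher, 297 lower), normexp gave 107 and 195, no filter on dim probes 600 and 553, RIN 1024 and 755, slide 444 and 944, and array weights 107 and 144. Leaving out 1 animal gave 200 to 1867 higher and 293 to 944 lower. Counts under the other settings were within 1.5 times of those reported, and the cause of the shifts was not tested beyond the construction given for HRY3, HRA3 and slide. The 4311 transcripts of the interaction became 0 without the filter, 0 without HRY1, HRY2, HRA1 or HRA2 (range 0 to 0), and, in settings added after the data were seen, 3 with all 11 arrays, 0 with slide beside them and 0 with RIN. It could not be estimated without HRY3 or HRA3. With the replicate number as a block, 291 transcripts were higher, 341 lower and 0 had an adjusted p under 0.05, and 7875 had an unadjusted p under 0.05 against 2930. Deviations of animals with the same number correlated at 0.333, 0.0579 and 0.192, each highest with its own number, and since 1 is under 0.1 the numbers were not taken to pair the animals. Number 3 is HRY3 with HRA3, the animals that the interaction sets apart. The block therefore also takes up that contrast, and its counts and the 0.192 are not separate from it. Precision is limited by 3 animals per side.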
